A study of Mus musculus with 6 samples.

Results

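The genes described here mark the phagocytes and antigen-presenting cells of myeloid origin: macrophages, dendritic cells and neutrophils. The members were 33 named genes, and each was read from the transcript cluster (a set of probes for 1 gene) that carries its symbol alone, taking the cluster with the highest mean where a gene had several. Such a cluster was found for 32 of the 33 genes, out of 23521 single-symbol clusters on the array. Clec9a, a receptor of cross-presenting dendritic cells, shares its cluster with Clec1b and was given no value. The measured genes comprised 15 of macrophages, 6 of dendritic cells, 4 of neutrophils and 7 shared among myeloid cells.

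RNA of each mouse was hybridised to its own array (Affymetrix Mouse Gene 2.0 ST), using colonic mucosa that appeared normal and lay next to tumours. The groups were 4 wild-type mice (WT, Mthfd1S+/+) and 2 mice heterozygous for the Mthfd1S allele (Mthfd1S+/-), which are deficient in the synthetase activity of the folate enzyme MTHFD1. All 6 were male BALB/c mice from a line backcrossed for at least 10 generations. All 6 had received azoxymethane (a colon carcinogen) at 6 mg/kg, followed by 2 cycles of 4 days with 3% dextran sulfate sodium, which injures the colonic lining. These cycles were given 1 and 4 weeks after the injection, and tissue was taken at 13 weeks. The labels give an age of 7 months and, for the injection, 3 months. No untreated mouse was analysed here, so every level below is that of a colon after carcinogen and colitis. Levels are the deposited log2 values, and a genotype difference is the Mthfd1S+/- mean minus the WT mean on that scale.

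Colonic macrophages are replenished from blood monocytes, depend on signalling through the receptor CSF1R and clear dying cells and microbes below the epithelium. Dendritic cells develop under the cytokine receptor FLT3 and carry antigen to lymph nodes. Neutrophils mature in bone marrow under the receptor CSF3R and enter the mucosa during active inflammation, where they release the S100A8 and S100A9 proteins and produce oxidants.

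The arrays had medians between 5.49 and 5.53. The epithelial marker Krt20 read 11.70 to 12.05 over the 6 mice, Epcam read 11.32 to 11.47, and the smooth muscle myosin gene Myh11 read 11.43 to 12.02, so muscle was also present. Mthfd1 itself read 7.50 to 7.75 in WT and 7.63 and 7.96 in Mthfd1S+/- mice. The labels do not say how the allele acts on the transcript, so its level leaves the genotype labels unchecked.

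No member passed the test between the genotypes. In limma, 0 of the 32 genes passed an adjusted p of 0.05 (adjusted p-values 0.855 to 0.999), where 0 of all tested clusters did (0%). At an unadjusted p under 0.05 there were also 0 of 32, against 5.79% of all tested clusters. The other scalings, eBayes with trend and leaving out each WT mouse also gave 0. Unmoderated least squares gave 1 member (3.12%, beside 5.19% of clusters). The identifier letter as a block gave 2 (6.25%, beside 7.83% of clusters). With the replicate number as a block there were 3 (9.38%, beside 9.91% of clusters). The groups did not overlap for 2 genes, both higher in Mthfd1S+/- mice; over all tested clusters 14.0% did not overlap, 7.96% with Mthfd1S+/- higher and 6.04% with Mthfd1S+/- lower. The median log2 difference of the 32 genes was 0.027, beside 0.012 for all tested clusters. It was -0.0071 without the first Mthfd1S+/- mouse, and 0.055 with each array centred on its median (all clusters 0.039). Of the 32 genes, 19 (59.4%) had the higher mean in Mthfd1S+/- mice, beside 54.0% of all tested clusters. With each array centred on its median the members' share was 78.1% (all clusters 63.1%), so the split of signs moved with the scaling.

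The intervals show how large a difference these arrays could have missed. For 30 of the 32 genes the 95% interval of the difference lay within 1.5-fold in either direction, which was so for 91.3% of all tested clusters. The exceptions were Cd14, whose interval reached -0.64, and Retnlg, whose interval reached -0.78. With 4 and 2 arrays the exact permutation test has 15 splits and cannot give a p below 0.0667. In bulk tissue, fewer cells of a type and less RNA per cell cannot be told apart.

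**Figure D1:**
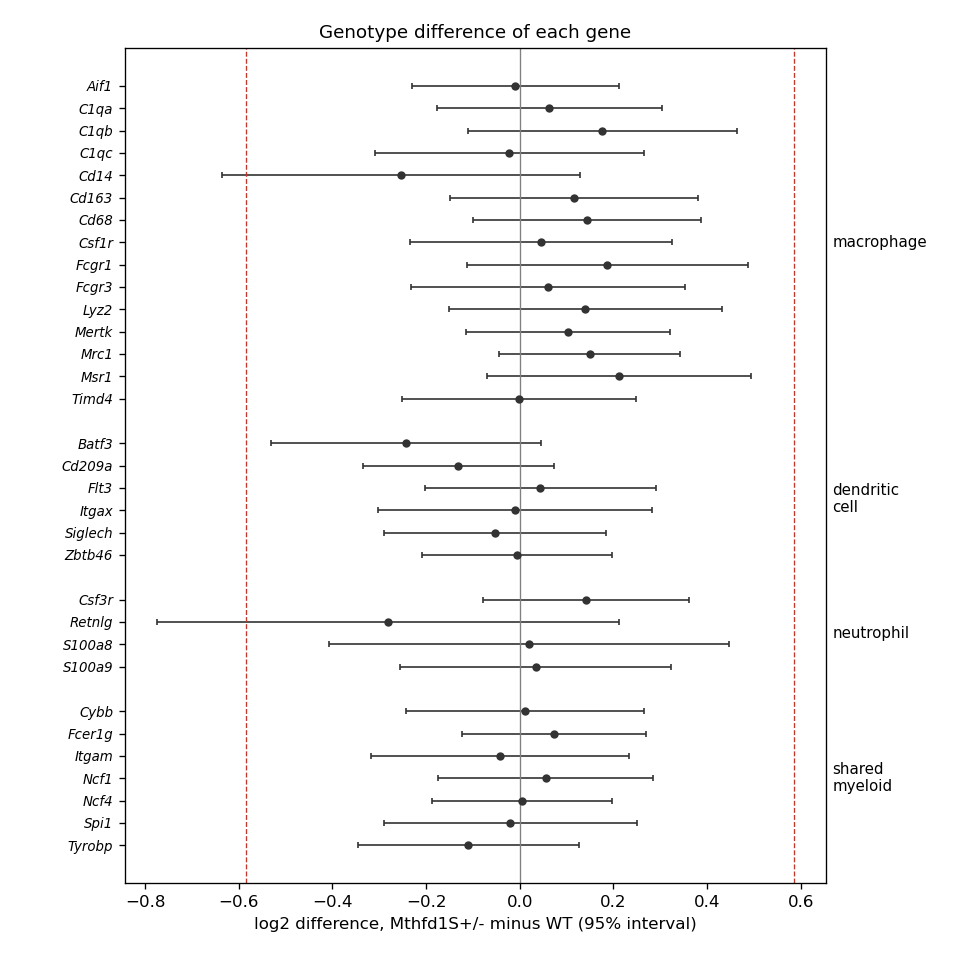
Log2 difference (Mthfd1S+/- minus WT, x axis) of each of the 32 genes with its 95% interval from limma; the dashed lines mark 1.5-fold. Every interval includes 0, and those of Cd14 and Retnlg cross a dashed line.

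Among the macrophage genes, 11 of 15 had the higher mean in Mthfd1S+/- mice, with a median difference of 0.10; 0 of 15 passed at an unadjusted p under 0.05 in limma. The median was 0.050 without WT mouse 1 and 0.068 without the first Mthfd1S+/- mouse. With arrays centred on their median the count was 14 of 15. Of all tested clusters, 54.0% had the higher mean in Mthfd1S+/- mice as deposited and 63.1% after this centring. Csf1r, the receptor for the macrophage growth factors CSF1 and IL-34, read 7.55, 7.46, 7.78 and 7.81 in the 4 WT mice, in order, and 7.77 and 7.62 in the 2 Mthfd1S+/- mice. Both Mthfd1S+/- values lay inside the WT range, and the difference was 0.046 ± 0.12 (SE). Cd68, a lysosomal protein of macrophages, read 8.35, 8.27, 8.60 and 8.40 in WT and 8.55 and 8.55 in Mthfd1S+/- mice. Its 2 Mthfd1S+/- values were nearly equal, and WT mouse 3 stood above them.

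The 2 genes whose groups did not overlap were both scavenger receptors, which take up modified proteins, glycans and microbes. Mrc1 (the mannose receptor CD206, cluster 17367102) read 7.58, 7.69, 7.70 and 7.63 in WT and 7.75 and 7.85 in Mthfd1S+/- mice. The difference was 0.15 ± 0.084 (SE; 95% interval -0.044 to 0.34) (limma adjusted p 0.864; exact permutation p 0.0667), the smallest this design allows. Mrc1 was among the steadiest members, with a WT SD of 0.057 (n = 4).

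Msr1 (the class A scavenger receptor, cluster 17508850) read 5.41, 5.09, 5.40 and 5.50 in WT and 5.61 and 5.51 in Mthfd1S+/- mice. WT mouse 2 was low, and WT mouse 4 and the second Mthfd1S+/- mouse read nearly the same. The difference was 0.21 ± 0.12 (SE) (limma adjusted p 0.869; exact permutation p 0.2.) The haemoglobin scavenger receptor Cd163 read 4.93, 5.21, 5.20 and 5.18 in WT and 5.12 and 5.37 in Mthfd1S+/- mice. Here the groups overlapped, since the first Mthfd1S+/- mouse lay below 3 of the WT mice.

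The 3 chains of C1q, the recognition molecule of the classical complement pathway, are made by macrophages, and their genes stand next to each other in the order C1qa, C1qc, C1qb with no protein-coding gene between them. C1qa read 7.82, 7.86, 8.13 and 7.98 in WT and 8.01 and 8.02 in Mthfd1S+/- mice. C1qb read 8.45, 8.14, 8.59 and 8.45 in WT and 8.57 and 8.59 in Mthfd1S+/- mice. C1qc read 7.21, 7.01, 7.40 and 7.42 in WT and 7.23 and 7.25 in Mthfd1S+/- mice. For each chain the 2 Mthfd1S+/- mice agreed closely (SD 0.0067, 0.013 and 0.012, n = 2) and lay inside the WT range, for C1qb near its top. The differences were 0.063 ± 0.10 for C1qa, 0.18 ± 0.13 for C1qb and -0.022 ± 0.13 for C1qc (SE).

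The chains ranked the mice alike in part. Over the 6 mice Pearson's r was 0.696 for C1qa with C1qb, 0.671 for C1qa with C1qc and 0.721 for C1qb with C1qc; Spearman's rho was 0.829, 0.600 and 0.429. The exact permutation p-values of r were 0.106, 0.144 and 0.0833, and those of rho 0.0583, 0.242 and 0.419. After Benjamini-Hochberg adjustment over the 5 gene pairs examined, each of the 3 r values had 0.241 and the rho values had 0.292, 0.604 and 0.699, so none passed. Without the 2 mice farthest from the median of the first gene, r was 0.997, 0.726 and -0.479, so the relation of C1qb with C1qc rested on WT mice 2 and 3.

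Promoters from RefSeq (assembly GRCm38.p6, 250 bases before to 50 after a transcript start) matched 25 of the 32 measured genes; C1qa, Cd14, Csf1r, Msr1, Ncf4, Spi1 and Tyrobp did not match. They were searched on both strands for the letters GAGGAAGT, a core bound by PU.1, the myeloid factor that the member Spi1 encodes. The core was found in 2 of the 25 genes, C1qc and S100a8, and in 3.2% of the 32851 promoters in the table. The shorter core GAGGAA, which is contained in the longer one and was chosen after seeing the data, was found in 13 of the 25 and in 28.3% of all promoters. For both cores the units differ. Members were counted as genes, also where a gene such as Fcgr3 had more than 1 promoter, while the overall share counts promoters. The shares are therefore not directly comparable. A match describes letters only and does not show binding. The windows of both genes with the longer core are given because they are the members that hold it; they read 5′ to 3′ on the gene's strand, and capitals mark the core, which lies on the opposite strand in both.
C1qc (chr4:136893062-136893149, minus strand): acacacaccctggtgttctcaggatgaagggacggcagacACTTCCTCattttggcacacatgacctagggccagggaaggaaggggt
S100a8 (chr3:90668859-90668946, plus strand): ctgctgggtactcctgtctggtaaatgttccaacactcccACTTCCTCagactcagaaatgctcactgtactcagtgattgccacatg
Relative to the transcript start, the core begins at base -195 in C1qc and at base -172 in S100a8. The 2 genes did not order the mice alike: WT mouse 2 was the lowest for C1qc and among the higher mice for S100a8. S100a8 was dim, with its mean at the 11.8 percentile of the tested clusters. Whether the match bears on the levels was not tested.

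The next genes are receptors for antibody and microbial products. Fcgr1, the high-affinity IgG receptor, read 6.26, 6.28, 6.52 and 6.25 in WT and 6.71 and 6.32 in Mthfd1S+/- mice. The first Mthfd1S+/- mouse was the highest and the second lay between WT mice, and the difference of 0.19 ± 0.13 (SE) was -0.0089 without the first and 0.38 (limma p 0.0255, adjusted p 0.829) without the second. Fcgr3, a low-affinity IgG receptor, read 5.95 to 6.40 in WT and 6.20 and 6.22 in Mthfd1S+/- mice; other Fc gamma receptor genes are close relatives, and its probes may read them.

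Cd14, the co-receptor for bacterial lipopolysaccharide, read 8.53, 8.07, 8.01 and 7.99 in WT and 8.05 and 7.74 in Mthfd1S+/- mice. WT mouse 1 was far above the rest and the second Mthfd1S+/- mouse was the lowest. The difference was -0.25 ± 0.17 (SE) (limma adjusted p 0.881; exact permutation p 0.467.) Without WT mouse 1 it was -0.13. It was -0.099 without the second Mthfd1S+/- mouse and -0.41 without the first Mthfd1S+/- mouse.

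The remaining macrophage genes are enzymes, uptake receptors and a cytoskeletal protein. Lyz2, the lysozyme of myeloid cells, read 9.99, 9.99, 10.31 and 10.24 in WT and 10.40 and 10.15 in Mthfd1S+/- mice; its paralog Lyz1 is near-identical, and the same probes may read both. Mertk, a receptor for dying cells, was the steadiest member in WT mice, at 7.58, 7.57, 7.64 and 7.62 (SD 0.032, n = 4). The first Mthfd1S+/- mouse stood apart from them at 7.83, while the second read 7.58. Timd4, a phosphatidylserine receptor of resident macrophages, and Aif1, an actin-binding protein, had differences of -0.0021 ± 0.11 and -0.0097 ± 0.097 (SE).

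**Figure D2:**
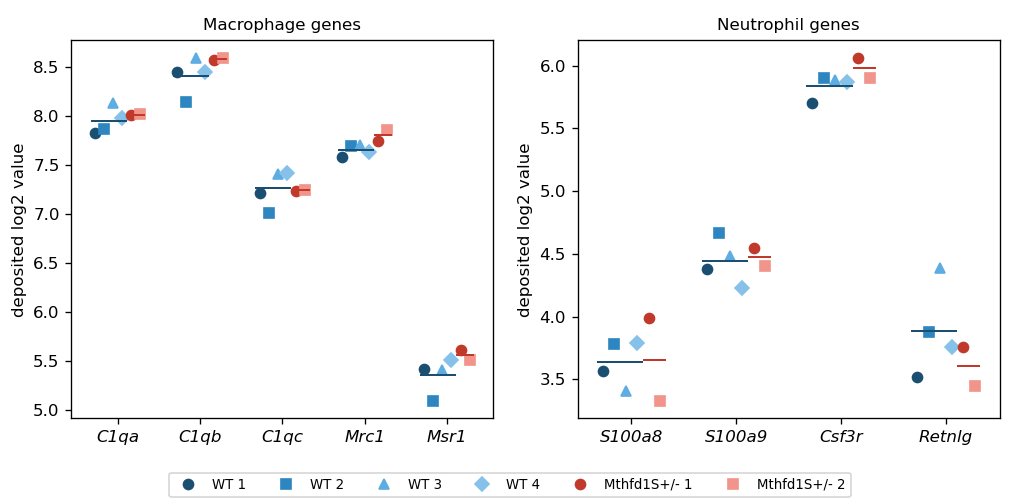
Deposited log2 values (y axis) of the 3 C1q genes and 2 scavenger receptors (left) and of the 4 neutrophil genes (right); each symbol is 1 mouse and the bars are group means (blue WT, n = 4; red Mthfd1S+/-, n = 2). Mrc1 and Msr1 are the genes without overlap, and the 2 Mthfd1S+/- mice lie apart for S100a8.

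Among the dendritic cell genes, 5 of 6 had the lower mean in Mthfd1S+/- mice, with a median difference of -0.032, and 0 of 6 passed at an unadjusted p under 0.05 in limma. With arrays centred on their median 3 of 6 were lower. The share of all tested clusters with the higher mean in Mthfd1S+/- mice was 54.0% as deposited and 63.1% after this centring. Batf3, a transcription factor of cross-presenting dendritic cells, read 4.93, 4.97, 4.80 and 4.74 in WT and 4.81 and 4.42 in Mthfd1S+/- mice. The second Mthfd1S+/- mouse was the lowest and the first lay within the WT range. The difference was -0.24 ± 0.13 (SE) (limma adjusted p 0.855; exact permutation p 0.267). It was -0.047 without the second Mthfd1S+/- mouse and -0.44 without the first. Batf3 was dim, with its mean at the 26.6 percentile of the tested clusters.

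Cd209a, a lectin receptor of monocyte-derived dendritic cells, read 8.11, 8.29, 8.24 and 8.20 in WT and 8.13 and 8.03 in Mthfd1S+/- mice, a difference of -0.13 ± 0.089 (SE). A second, dimmer cluster of Cd209a had -0.39 ± 0.22, the same sign with a wider spread. Flt3, the receptor that drives dendritic cell development, read 5.44, 5.56, 5.41 and 5.73 in WT and 5.54 and 5.62 in Mthfd1S+/- mice, and its groups overlapped fully. Itgax, the integrin chain CD11c, read 6.17, 6.03, 6.36 and 6.48 in WT and 6.26 and 6.25 in Mthfd1S+/- mice. The WT mice thus spanned 0.45 while the Mthfd1S+/- mice were nearly equal near the WT mean. Zbtb46, a transcription factor of classical dendritic cells, and Siglech, a lectin of plasmacytoid dendritic cells, had differences of -0.0066 ± 0.088 and -0.053 ± 0.10 (SE).

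Of the 4 neutrophil genes, 3 were dim: S100a8, Retnlg and S100a9 had means at the 11.8, 13.2 and 21.4 percentiles of the tested clusters. Csf3r was at the 48.6 percentile, near the middle. No detection calls were used to tell low values from background. S100a8 and S100a9 are neighbouring genes whose proteins pair as calprotectin. S100a8 (cluster 17399823) read 3.57, 3.78, 3.40 and 3.79 in WT and 3.99 and 3.33 in Mthfd1S+/- mice. The 2 Mthfd1S+/- mice were the highest and the lowest of all 6, so the mean difference of 0.021 ± 0.19 (SE) comes with a range of 0.66. S100a9 read 4.38, 4.67, 4.49 and 4.23 in WT and 4.54 and 4.40 in Mthfd1S+/- mice, and both of the latter lay inside the WT range. Although their proteins pair, the transcripts did not clearly follow each other over the 6 mice, with r of 0.213 (exact permutation p 0.696, adjusted 0.696) and rho of 0.143 (exact p 0.803, adjusted 0.803). Without both Mthfd1S+/- mice, the farthest from the median, r was -0.058.

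Csf3r, the receptor for granulocyte colony-stimulating factor, read 5.71, 5.90, 5.89 and 5.87 in WT and 6.07 and 5.90 in Mthfd1S+/- mice. The first Mthfd1S+/- mouse was the highest and WT mouse 1 the lowest, and the difference was 0.14 ± 0.097 (SE). Retnlg, a resistin-like protein of neutrophils, varied most among members in WT mice, at 3.52, 3.88, 4.39 and 3.76 (SD 0.37, n = 4), and read 3.76 and 3.45 in Mthfd1S+/- mice. WT mouse 3 was the high one. The difference was -0.28 ± 0.22 (SE) (limma adjusted p 0.895; exact permutation p 0.333.)

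As deposited, the genes shared among myeloid cells had the smallest median difference of the 4 groups, 0.0050. Of these genes 4 of 7 were higher in Mthfd1S+/- mice and 0 of 7 stood at an unadjusted p under 0.05 in limma. With arrays centred on their median the shared genes had 0.032 and the dendritic cell genes -0.0049, so this ranking moved with the scaling. Spi1, which encodes PU.1, read 6.65, 6.46, 6.87 and 6.72 in WT and 6.70 and 6.61 in Mthfd1S+/- mice. Itgam, the integrin chain CD11b and the direct gene neighbour of Itgax, read 6.88, 6.76, 7.001 and 6.74 in WT and 6.97 and 6.64 in Mthfd1S+/- mice. For both, WT mouse 3 was the highest of the 6.

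Tyrobp and Fcer1g encode the adaptor chains DAP12 and FcR gamma, which carry signals of receptors such as TREM2 and FCGR1. Tyrobp read 6.60, 6.45, 6.67 and 6.51 in WT and 6.34 and 6.56 in Mthfd1S+/- mice, a difference of -0.11 ± 0.10 (SE). Fcer1g read 8.30, 8.22, 8.36 and 8.21 in WT and 8.31 and 8.38 in Mthfd1S+/- mice, a difference of 0.073 ± 0.086 (SE). The first Mthfd1S+/- mouse was thus the lowest for Tyrobp and inside the WT range for Fcer1g.

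Cybb, Ncf1 and Ncf4 encode parts of the phagocyte NADPH oxidase, the membrane subunit gp91phox and the cytosolic subunits p47phox and p40phox. Cybb read 7.41, 7.24, 7.56 and 7.27 in WT and 7.44 and 7.32 in Mthfd1S+/- mice. Ncf1 and Ncf4 had ranges over the 6 mice of 0.28 and 0.13, the latter the narrowest of all members. Their differences were 0.055 ± 0.10 and 0.0050 ± 0.084 (SE), and that of Cybb 0.011 ± 0.11. Ncf1 and Ncf4 had r of 0.513 over the 6 mice (exact permutation p 0.300, adjusted 0.375) and rho of 0.257 (exact p 0.658, adjusted 0.803), and r of 0.290 without WT mice 3 and 4.

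**Figure D3:**
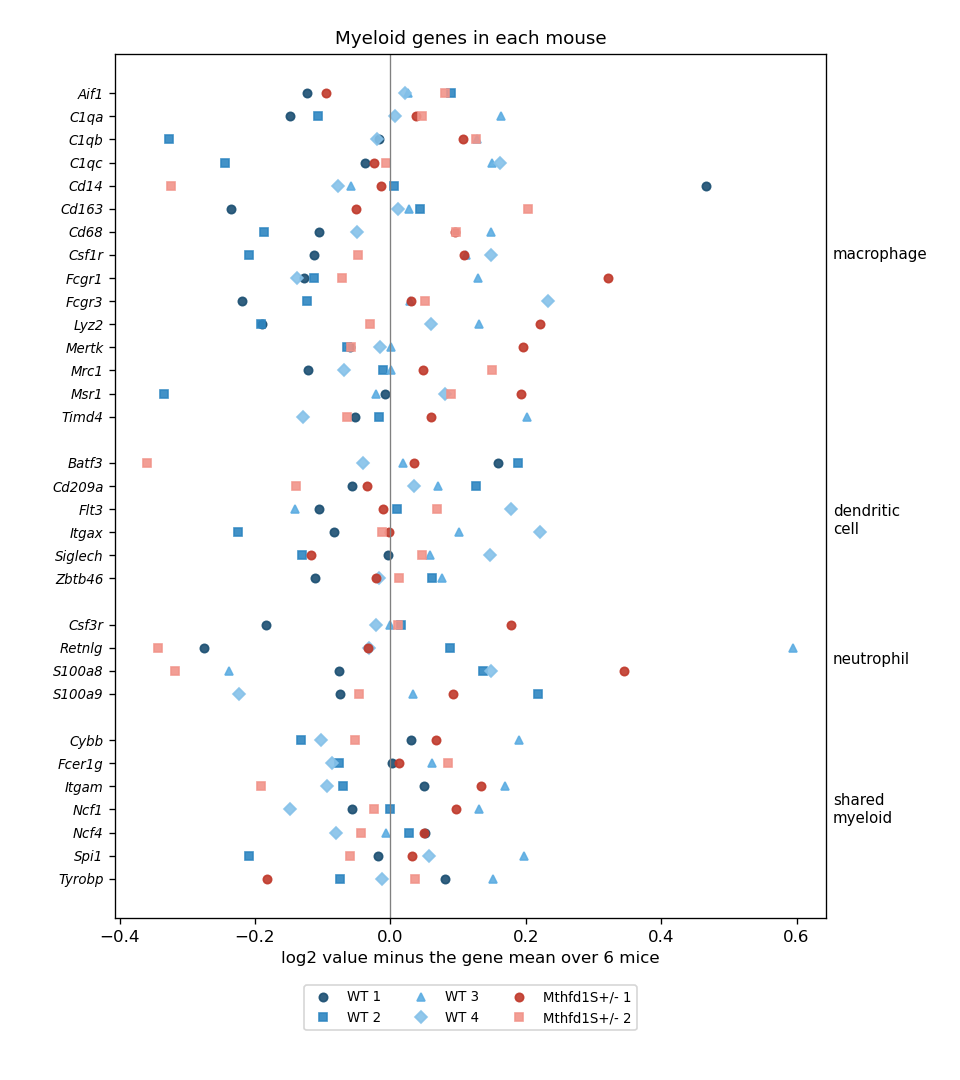
Each of the 32 genes (rows, grouped by class) in each mouse, as the log2 value minus that gene's mean over the 6 mice. WT mouse 3 holds the highest value for 11 genes, WT mouse 2 the lowest for 11, and the Mthfd1S+/- mice are spread among the WT mice.

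The mice of each genotype also differed from each other. WT mouse 3 was above the gene mean for 26 of the 32 genes and had the highest value of the 6 mice for 11, among them 5 of the 7 shared genes. WT mouse 1 was above the gene mean for 7 of 32 and WT mouse 2 for 12 of 32. The first Mthfd1S+/- mouse was above for 21 and the second for 14. The median SD over the 4 WT mice was 0.14 for the members and 0.11 for all tested clusters, and it ran from 0.032 (Mertk) to 0.37 (Retnlg) among members.

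To compare the 3 cell classes within each mouse, every gene was centred on its mean over the 6 mice and the class was averaged, with no test. Macrophage means for WT mice 1 to 4 were -0.073, -0.12, 0.078 and 0.015, and those for the Mthfd1S+/- mice 0.082 and 0.016. WT mice 1 and 2 were the low ones, with 1 and 3 of 15 genes above the gene mean, against 13 in WT mouse 3 and 11 in the first Mthfd1S+/- mouse. The dendritic cell means were -0.034, 0.0048, 0.031 and 0.087 in WT and -0.026 and -0.064 in Mthfd1S+/- mice, a range that overlapped at WT mouse 1.

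The neutrophil means were -0.15, 0.11, 0.098 and -0.031 in WT and 0.15 and -0.17 in Mthfd1S+/- mice. The 2 Mthfd1S+/- mice held the highest and the lowest value of the 6. Leaving out the first of them gave a median neutrophil difference of -0.17, and leaving out the second gave 0.16. The shared myeloid means were 0.020, -0.076, 0.13 and -0.067 in WT and 0.030 and -0.035 in Mthfd1S+/- mice, all inside the WT range.

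The classes did not rank the mice in 1 order. WT mouse 2 had the lowest macrophage mean and the second highest neutrophil mean, so that neutrophil minus macrophage was 0.23 there, the largest of the 6 mice. In the second Mthfd1S+/- mouse the same quantity was -0.19, the lowest, and in the other mice it ran from -0.080 to 0.064. Dendritic cell minus macrophage was -0.11 and -0.080 in the Mthfd1S+/- mice and 0.039, 0.12, -0.047 and 0.072 in the 4 WT mice, so the groups did not overlap in this quantity. With class medians in place of means they overlapped: the second Mthfd1S+/- mouse had -0.046 and WT mouse 3 -0.047. This quantity was not tested.

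**Figure D4:**
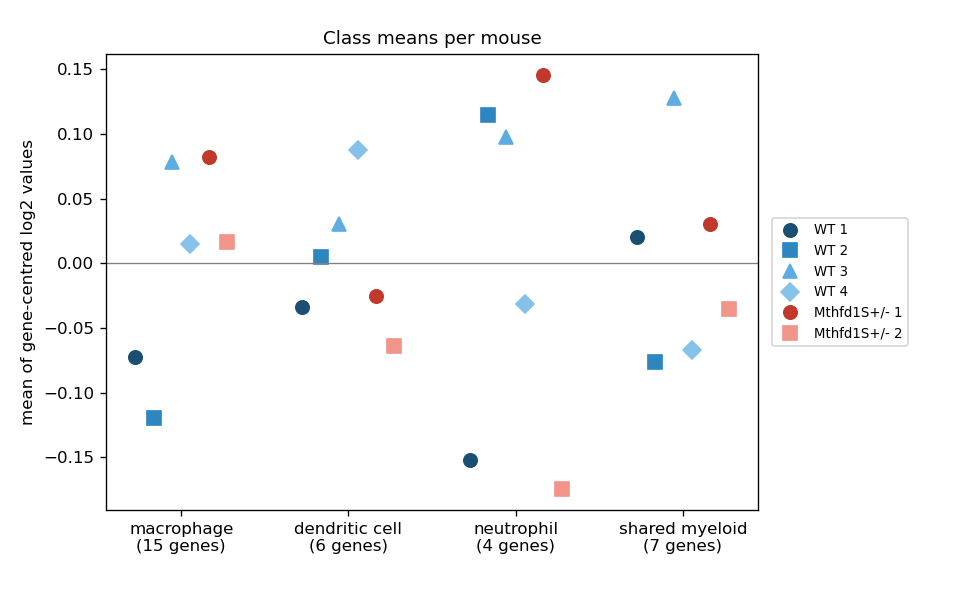
Mean of gene-centred log2 values (y axis) for the 15 macrophage, 6 dendritic cell, 4 neutrophil and 7 shared myeloid genes in each of the 6 mice. The 2 Mthfd1S+/- mice lie at opposite ends for neutrophil genes, and WT mice 1 and 2 are low for macrophage genes.

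Markers of other cells in the samples also varied between mice. Fibroblast markers (10 of 10 measured, all with the higher mean in Mthfd1S+/- mice) had means of -0.14, -0.29, 0.10 and 0.040 in WT and 0.069 and 0.23 in Mthfd1S+/- mice, so WT mice 1 and 2, low for macrophage genes, were low here too. Smooth muscle markers (12 of 12) had -0.18, -0.26, -0.024 and 0.11 in WT and -0.056 and 0.41 in Mthfd1S+/- mice, and epithelial markers (12 of 12) 0.060, 0.0060, 0.053 and 0.0026 in WT and -0.0022 and -0.12. The second Mthfd1S+/- mouse, lowest for neutrophil genes, thus had the most muscle and the least epithelial signal. T and NK cell markers (10 of 12) ran from -0.10 in WT mouse 2 to 0.10 in WT mouse 3. Enteric neuron and glia markers (8 of 8, all with the higher mean in Mthfd1S+/- mice) had -0.26, -0.34, 0.036 and 0.16 in WT and 0.036 and 0.36 in Mthfd1S+/- mice, low in the same WT mice as the fibroblast markers. Adipocyte markers (6 measured, all with the lower mean in Mthfd1S+/- mice, median difference -0.71) had the widest range of these lists, at 0.20, -0.030, 1.008 and -0.315 in WT and -0.43 and -0.43 in Mthfd1S+/- mice. Their highest mouse was WT mouse 3, which also held the highest value for 11 members. The part of these cells in the myeloid values was not tested.

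Further genes of the same cells, listed from knowledge of their function, were tested in the same fit, and 0 passed the adjusted threshold in limma. Of 24 other macrophage and monocyte genes, 13 were higher and 11 lower in Mthfd1S+/- mice (median 0.014). Beside 5.79% of all tested clusters, 1 of the 24 stood at an unadjusted p under 0.05 in limma. That gene was Cd209g, a dim lectin gene, at 4.68, 4.87, 4.97 and 5.00 in WT and 4.61 and 4.48 in Mthfd1S+/- mice. Trem2, a lipid receptor that signals through DAP12, read 6.23, 6.26, 6.45 and 6.33 in WT and 6.49 and 6.45 in Mthfd1S+/- mice, a difference of 0.15 ± 0.091 (SE). Its groups did not overlap, though WT mouse 3 and the second Mthfd1S+/- mouse read nearly the same. Of the 24 genes, 4 did not overlap, beside 14.0% of all tested clusters. Trem2 was the only one of these that was higher in Mthfd1S+/- mice.

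Of 24 other dendritic cell genes, 15 were higher and 9 lower (median 0.016), with 0 at an unadjusted p under 0.05 in limma. Irf8, a transcription factor of cross-presenting and plasmacytoid dendritic cells, read 7.74, 7.66, 7.67 and 7.64 in WT and 7.58 and 7.38 in Mthfd1S+/- mice. Its difference was -0.20 ± 0.090 (SE, adjusted p 0.837 in limma). Irf8 was lowest in the second Mthfd1S+/- mouse, while other genes of this list were highest in that mouse. Ccr7, which guides dendritic cells and T cells to lymph nodes, had -0.21 ± 0.11. Id2, another gene of this list, went the other way at 0.24 ± 0.13. Of the 24 genes, 5 did not overlap, beside 14.0% of all tested clusters, and they lay in both directions: Irf8 and Ccr7 were lower and Id2 was higher.

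Of 23 other neutrophil genes, 14 were higher and 9 lower (median 0.0090), with 0 at an unadjusted p under 0.05 in limma. Ly6g, the usual surface marker of mouse neutrophils, read 10.38, 9.93, 9.48 and 9.04 in WT and 9.59 and 8.45 in Mthfd1S+/- mice. This cluster lay at the 95.1 percentile of the tested clusters while S100a8 lay at the 11.8, and its highest mouse, WT mouse 1, was the third lowest for S100a8; Ly6g has close relatives that its probes may read. Mmp9, a gelatinase of neutrophil granules, read 6.02, 5.57, 5.83 and 5.82 in WT and 6.31 and 5.85 in Mthfd1S+/- mice. Its highest mouse, the first Mthfd1S+/- mouse, was also the highest for S100a8 and Csf3r. By contrast S100a9 was highest in WT mouse 2, Retnlg in WT mouse 3, and Elane of this list in the second Mthfd1S+/- mouse.

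Among 16 growth factors and recruiting signals of myeloid cells, 8 were higher and 8 lower. At an unadjusted p under 0.05 in limma there were 2 of 16, beside 5.79% of all tested clusters. Csf1, the main ligand of CSF1R, read 7.37, 7.34, 7.49 and 7.42 in WT and 7.60 and 7.64 in Mthfd1S+/- mice. Both Mthfd1S+/- mice lay above all WT mice, with a difference of 0.21 ± 0.084 (SE; limma adjusted p 0.837; exact permutation p 0.0667). The other CSF1R ligand, Il34, read 6.74, 6.38, 6.76 and 6.68 in WT and 6.82 and 6.88 in Mthfd1S+/- mice, again without overlap, at 0.21 ± 0.12. Of the 16 genes, 6 did not overlap, beside 14.0% of all tested clusters. All of these but Csf1 and Il34 were lower in Mthfd1S+/- mice, among them Cxcl2 (-0.19 ± 0.096) and Cxcl3. The receptor Csf1r itself overlapped fully, as given above. The neutrophil attractant Cxcl3 had -0.33 ± 0.13 at a level of 2.16 to 2.70, among the dimmest clusters.

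In the remaining lists some genes stood at an unadjusted p under 0.05 in limma, beside 5.79% of all tested clusters. None passed the adjusted threshold. Of 8 NADPH oxidase relatives 1 stood there, Duox2, the epithelial oxidase, at -0.33 ± 0.14 (SE). Of 10 myeloid transcription factors it was also 1, Klf4, which is also strongly expressed by epithelium, at -0.27 ± 0.093. Of 14 complement genes beyond C1q there were 2. Cd55, which protects cells from complement, had -0.46 ± 0.17 and Cfb, of the alternative pathway, -0.19 ± 0.082. Of 14 genes of Fc receptor and adaptor signalling there were 0 in limma, with 10 higher and 4 lower.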

How the data were processed

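The authors deposited log2 values for each transcript cluster and array. Expression Console (Affymetrix) is the tool that the submitters' processing notes name; its version, the background and summary steps and the build were not given in the sources used here. That the scale is log2 was taken from the range of 1.06 to 13.5. Columns of no sample numbered 0. The platform table named 1 gene for 23521 of 41345 clusters; 1814 had several symbols and 16010 none, and these were left out. All 32 measured members matched RefSeq (GRCm38.p6) by gene identifier.

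Genotypes were compared over all single-symbol clusters with limma 3.58.1 in R 4.3.3 (lmFit, eBayes, two-sided, no covariate; 4 residual and 4.35 prior degrees of freedom) with Benjamini-Hochberg adjustment at 0.05; single genes also had an exact two-sided permutation test over 15 splits. Correlations used all 720 pairings. Classes have counts and medians, without a test. Precision is limited by having only 6 arrays, with a median SE of 0.11 over members. The labels call the arrays biological replicates, 1 mouse each.

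The members and all lists were chosen with earlier results of these data known. All members could be named, and from the other lists the 4 genes with the smallest p, plus Mthfd1; Krt20, Epcam and Myh11 were named to check the tissue. The limma step was tested on simulated data. Alternatives were other scalings, filters, variance models, blocks and leaving out each array.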

Additional observations from a re-analysis of the deposited data

Results flagged for a closer look

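Within the 4 WT mice, 1 value stood apart from the other 3 for 3 of the 32 genes, by a gap of more than 0.829 of the group's range. The nominal rate of this rule is about 1 of 20 groups. Its rate over all tested clusters was not computed, so the members cannot be set against other genes here. Cd14 read 8.53 in WT mouse 1, with a gap of 0.849 of the range. Fcgr1 read 6.52 in WT mouse 3, with 0.904 of the range. Cd163 read 4.93 in WT mouse 1, the lowest, with 0.884 of the range. The 3 values fell in 2 mice and went in both directions.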

How the results depend on the processing

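Over the alternatives run, 0 clusters and 0 members passed the adjusted threshold in limma. At an unadjusted p under 0.05, 1363 clusters became 675 among the brighter clusters and 2600 over all rows. For members the count of 0 became 1 with unmoderated least squares (Mrc1, p 0.0475, 3.12% of members beside 5.19% of clusters). It became 2 with the identifier letter as a block (Cd14 and Batf3, 6.25% of members beside 7.83% of clusters). At that threshold it stayed 0 when each WT mouse was left out, beside 4.53% to 6.97% of clusters. With the replicate number as a block, 2331 clusters (9.91%) and 3 members (9.38%; Cd14, Batf3 and Msr1; adjusted p 0.323 to 0.486) stood there, and the dendritic cell median was 0.026; the labels share only a number, and same-numbered mice had deviations correlated at 0.117 and -0.044. Leaving out each array gave medians of 0.050 to 0.13 for macrophage genes, -0.095 to -0.0025 for dendritic cell genes, -0.17 to 0.16 for neutrophil genes, -0.042 to 0.052 for shared genes and -0.0071 to 0.057 for all members. Without the 2 farthest mice r was -0.058 for S100a8 with S100a9 and -0.479 for C1qb with C1qc. With the class median in place of the mean, the dendritic cell value of the second Mthfd1S+/- mouse was 0.00037, not -0.064, and the genotypes overlapped in dendritic cell minus macrophage; this median comparison was chosen after seeing the data. The cause of these changes was not tested. The sign of the difference held in every setting for 13 of 32 members. Among the brighter clusters 0 of 4 neutrophil genes were left, so their median has no value there.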
